A study of Homo sapiens with 5 samples.

Results

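The epidermal differentiation complex is a cluster of genes on human chromosome 1 (band 1q21) whose products build and line the outer layers of stratified epithelia. Its members were taken by name: protein-coding genes whose symbol begins with S100A, SPRR or LCE, together with IVL, FLG, FLG2, RPTN, HRNR, CRNN, LORICRIN and TCHH. Among 23459 genes counted, 52 met this rule, and 14 of them reached at least 1 CPM (counts-per-million) in 2 or more libraries. These were 12 of 16 S100A genes, 1 of 10 SPRR genes, 0 of 18 LCE genes and 1 of the 8 single genes. All 52 lie on chromosome 1, between 151955391 and 153604515 in build GRCh37. LCE7A and SPRR5 were not analysed here.

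The libraries came from MCF10A SAM cells. MCF10A is an immortalised, non-tumorigenic human mammary epithelial line, and the SAM derivatives, picked as single clones, carry dCas9-VP64 and MCP-p65-HSF1, which together activate a promoter that a guide RNA selects. Both groups shared these components and the same medium with horse serum, insulin, hydrocortisone, cholera toxin and EGF, and they differed in the guide: a non-targeting control (NTC, 3 libraries) or sgJUN#1 against the JUN promoter (2 libraries). The comparison asks what raised JUN, a subunit of the transcription factor AP-1, does to gene expression in these cells. The study calls its replicates biological, but the labels do not name separate cultures, so the p-values measure the spread between these libraries, which may in part be technical.

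S100A proteins are small calcium-binding proteins with EF-hand motifs that act as dimers inside cells, and some are released as signals of damage. SPRR proteins, LCE proteins, involucrin (IVL) and loricrin are cross-linked by transglutaminases into the cornified envelope of dying keratinocytes, and the fused S100-type proteins, such as filaggrin (FLG), hornerin (HRNR) and trichohyalin (TCHH), bind and bundle keratin. The envelope genes are best known in skin and other squamous epithelia and are switched on late in differentiation, whereas many S100A genes are used by epithelia at large. AP-1 sites are textbook elements of several of these promoters.

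In JUN-overexpressing cells the measurable part of the complex was its S100A genes, and 9 of the 11 that could be tested had a positive log2 fold change (sgJUN#1 over NTC), beside 48.98% of all tested genes. Library totals ran from 2455627 to 4988062 counts, and 13616 genes passed the expression filter and were tested. S100A9, among the 9, passed the filter only through its sgJUN#1 libraries, where it was high. The target JUN had CPM values of 25.0, 36.2 and 9.32 with NTC, against 172 and 265 with sgJUN#1. This log2 fold change of 3.25 (SE 0.484) had an edgeR adjusted p-value of 0.0733. Both sgJUN#1 libraries thus lay above every NTC library, although JUN missed the threshold of 0.05 over all genes. Of the epithelial and basal epithelial markers, KRT19 had no count, KRT17 had none in NTC replicate 1, and the others had counts in every library, with KRT14 low at 0.826 to 3.26 CPM.

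Of the 14 members, 11 were tested, all of them S100A genes. In edgeR's quasi-likelihood test 0 of 11 passed an adjusted p-value of 0.05, where 0.206% of all tested genes did, 0.0808% higher and 0.125% lower in sgJUN#1. Without the expression filter edgeR called 1 member, S100A8, against 0.756% of the genes then tested. DESeq2 called 2 of the 11, where it called 1.05% of all tested genes, and limma-voom called 0, against 0.14%. At an unadjusted edgeR p-value under 0.05 there were 7 of 11 members, 6 of them higher and 1 lower in sgJUN#1. The same cut took 8.38% of all tested genes, 4.02% higher and 4.36% lower. For 6 members the NTC libraries were all exceeded by both sgJUN#1 libraries, as in 12.2% of tested genes, and for 2 both sgJUN#1 libraries were lowest, as in 12.8%. S100A9 is in both sets of 6, and as it passed the filter only through sgJUN#1, its place there is no separate evidence. The median log2 fold change of the 11 was 0.44, beside -0.0082 over all tested genes. Neighbouring S100A genes share a locus and were chosen by name with earlier results of these data known, so these counts are given as a description.

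**Figure D1:**
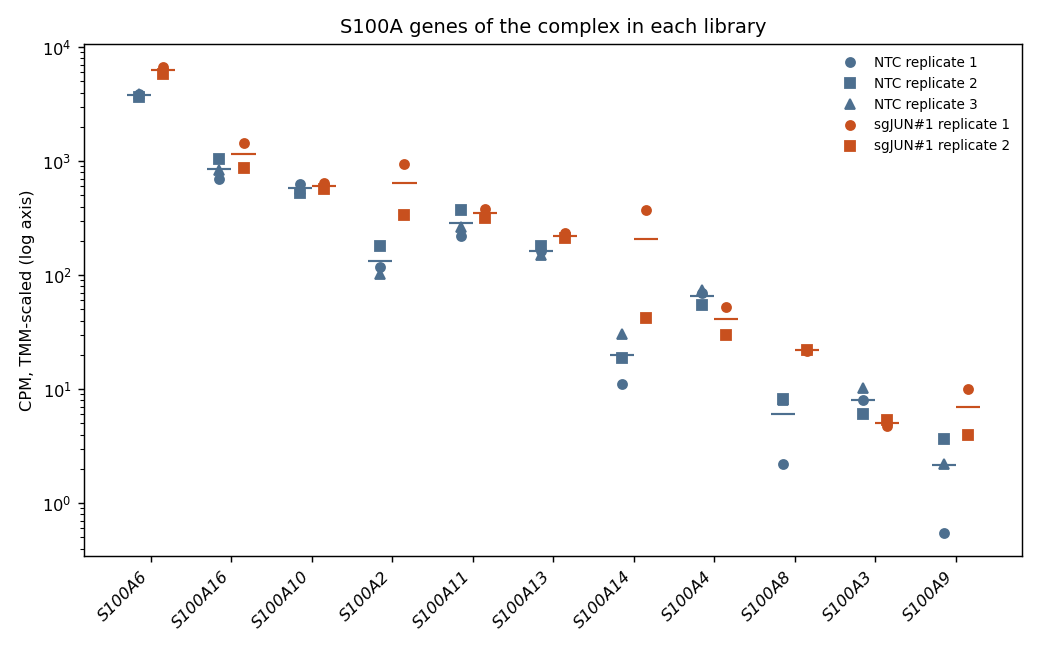
CPM of the 11 tested S100A genes on a log axis, with TMM-scaled library sizes, in the 3 NTC and the 2 sgJUN#1 libraries. Points are libraries and short lines are group means, and in 6 genes, among them S100A6, S100A2, S100A14 and S100A8, both sgJUN#1 points lie above all NTC points.

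Together the members took 0.570%, 0.609% and 0.607% of all counts in NTC replicates 1 to 3 and 1.05% and 0.836% in sgJUN#1 replicates 1 and 2. The sgJUN#1 libraries lay above all NTC libraries in this share. S100A6 alone gave between 60.5% and 70.7% of the members' counts in each library. Without S100A6 the members summed to 1926, 2401 and 2047 CPM in NTC and to 4098 and 2420 CPM in sgJUN#1, so that sgJUN#1 replicate 2 was then close to NTC replicate 2. The 3′ end protocol reads a stretch near the end of each transcript, so levels of different genes are set side by side as tags, which depend little on transcript length.

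S100A6 (calcyclin, Entrez 6277, chromosome 1, 153507075 to 153508720), a dimer that binds annexins and cytoskeletal partners, was the most abundant member. It was among the 8 genes with the most counts in every library. Its level was 3924, 3682 and 3872 CPM in NTC and 6666 and 5853 CPM in sgJUN#1, that is 3826 ± 127 (SD, n = 3) against 6260 ± 575 CPM (SD, n = 2). The NTC libraries were close together and both sgJUN#1 libraries stood clear of them. The log2 fold change was 0.71 (SE 0.163), which did not pass over all genes (edgeR adjusted p-value 0.200). With single libraries left out it stayed between 0.61 and 0.81.

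S100A2 (Entrez 6273, chromosome 1, 153533584 to 153540366), an S100 protein of basal epithelial cells, had the lowest p-value of the members. NTC libraries held 119, 181 and 102 CPM and sgJUN#1 libraries 947 and 339 CPM. The groups did not overlap, but sgJUN#1 replicate 1 carried 2.79 times the level of replicate 2, a difference between these libraries that 1.72% of tested genes matched or exceeded. The log2 fold change was 2.27 (SE 0.425, edgeR unadjusted p-value 7.6e-04, adjusted p-value 0.130), the value of rank 38 among 13616. It passed with DESeq2 (log2 fold change 2.27, DESeq2 adjusted p-value 2.9e-06). It did not pass with limma-voom (limma-voom adjusted p-value 0.197) or in edgeR without the expression filter (adjusted p-value 0.284). Nor did it pass in edgeR with a term for replicate number (adjusted p-value 0.735). The log2 fold change was 1.34 without sgJUN#1 replicate 1 and 2.83 without replicate 2, each from a fit with 1 sgJUN#1 library.

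S100A14 (Entrez 57402, chromosome 1, 153586731 to 153589462), an S100 protein of epithelial cell membranes, had the largest log2 fold change of the members. Its CPM values were 11.0, 18.7 and 30.4 in NTC and 370.1 and 42.2 in sgJUN#1, from 40, 46 and 137 counts and from 1793 and 118 counts. Replicate 1 was thus far above every other library, whereas replicate 2 was the next highest, not far above NTC replicate 3. That 8.77-fold gap between the sgJUN#1 libraries was matched or exceeded by 0.0514% of tested genes. The log2 fold change of 3.35 (SE 0.887) had an edgeR adjusted p-value of 0.369 and ranked 7 of 13616. It was 1.06 without sgJUN#1 replicate 1 and 4.204 without replicate 2, each from a fit with 1 sgJUN#1 library.

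The epithelial markers differed in where they stood highest. EPCAM, CDH1, KRT6A, KRT17, KRT18 and ITGA6 had their highest level in sgJUN#1 replicate 1, whereas KRT5 and KRT8 were highest in NTC replicate 3, TP63 in sgJUN#1 replicate 2 and KRT14 in NTC replicate 2. KRT14 and TP63 were lowest in sgJUN#1 replicate 1, at 0.826 and 3.10 CPM. The adhesion gene EPCAM had 23.7, 7.33 and 23.3 CPM in NTC and 144 and 56.5 CPM in sgJUN#1. CDH1, which encodes E-cadherin, had 29.7 to 57.9 CPM in NTC and 103 and 44.4 CPM in sgJUN#1, and the keratin gene KRT6A had 465 to 748 CPM in NTC and 1289 and 398 CPM in sgJUN#1. The basal list summed to 767 to 1167 CPM in NTC and to 1671 and 655 CPM in sgJUN#1, and the epithelial list to 92.8 to 150.2 CPM in NTC and to 314 and 151 CPM in sgJUN#1. Whether these marker levels play a part in the S100A14 and S100A2 values was not tested. In bulk RNA, more cells with a transcript and more of it per cell cannot be told apart.

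Because JUN is a subunit of AP-1, promoter windows of 250 bases upstream of the annotated start are printed for the abundant S100A6 and for S100A2, S100A14 and S100A3, which had the largest log2 fold changes upwards and the largest downwards. They are RefSeq sequences in build GRCh38.p14, read 5′ to 3′ along the gene, at chr1:153535992-153536241 for S100A6, chr1:153565845-153566094 for S100A2, chr1:153616326-153616575 for S100A14 and chr1:153549259-153549508 for S100A3, all on the minus strand. Capitals mark the AP-1 motif TGAGTCA or its reverse complement TGACTCA.
S100A6: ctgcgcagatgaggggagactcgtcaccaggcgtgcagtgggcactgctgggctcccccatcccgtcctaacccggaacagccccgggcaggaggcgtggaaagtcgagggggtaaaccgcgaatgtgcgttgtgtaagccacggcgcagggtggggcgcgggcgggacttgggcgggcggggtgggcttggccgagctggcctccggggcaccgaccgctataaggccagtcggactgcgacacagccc
S100A2: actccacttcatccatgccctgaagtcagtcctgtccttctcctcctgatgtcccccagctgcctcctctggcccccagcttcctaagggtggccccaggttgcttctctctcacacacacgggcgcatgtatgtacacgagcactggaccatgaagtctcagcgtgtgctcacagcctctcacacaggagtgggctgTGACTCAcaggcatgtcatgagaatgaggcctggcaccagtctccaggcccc
S100A14: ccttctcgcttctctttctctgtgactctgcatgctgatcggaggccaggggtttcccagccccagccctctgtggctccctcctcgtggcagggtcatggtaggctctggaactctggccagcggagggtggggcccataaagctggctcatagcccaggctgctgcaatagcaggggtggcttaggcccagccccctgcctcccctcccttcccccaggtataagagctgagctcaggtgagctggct
S100A3: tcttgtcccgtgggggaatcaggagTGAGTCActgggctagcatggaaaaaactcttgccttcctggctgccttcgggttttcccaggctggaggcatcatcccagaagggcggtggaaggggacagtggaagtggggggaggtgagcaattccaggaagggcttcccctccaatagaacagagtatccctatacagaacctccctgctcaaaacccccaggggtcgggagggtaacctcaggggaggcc
The S100A2 window held TGACTCA starting at -52 from the annotated start, in 1 of the 2 windows of this gene, and the S100A3 window held TGAGTCA starting at -225. The S100A6 and S100A14 windows held neither form.

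Over the complex, 49 of the 52 members matched a promoter window, and 10 of the 49 (20.4%) held TGAGTCA or TGACTCA in one of their windows. Of all 27305 genes with a window 5.19% did. The ATF-type motif TGACGTCA was in 0 members and in 2.03% of genes. The motif of TEAD factors, the partners of YAP, CATTCC, or GGAATG on the other strand, was in 13 members (26.5%) and in 14.3% of genes. It was in 2 of the 16 S100A genes, S100A5 and S100A16, and in 11 of the other 33 members. These 11 include LCE2A, LCE2B, LCE2C and LCE2D, which are related copies. The AP-1 motif was in 3 of the 16 S100A genes and in 7 of the other 33 members. TATAAA or TTTATA was in 28 members and in 3563 of the 27305 genes. The windows of the complex thus differed from those of all genes in these letters too. None of these motifs contains another. The members with the AP-1 motif were S100A2, S100A3, S100A5, IVL, LORICRIN, SPRR1A, SPRR1B, SPRR2A, SPRR2F and SPRR3. The SPRR genes are related copies, and the SPRR2A and SPRR2F windows are much alike, with matches at -197 and -196. Such matches are not independent of each other. Of the members with the motif, 2 were tested, out of 11 tested members with a window. These were S100A2, which stood higher in sgJUN#1, and S100A3, which stood lower. A further 3 members with the motif had at most 7 counts in any library, and 5 had none. A match is a stretch of letters and does not show binding.

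S100A8 and S100A9, whose products form the heterodimer calprotectin, were both higher in sgJUN#1 at low levels. S100A8 (Entrez 6279, chromosome 1, 153362508 to 153363549) held 8, 20 and 36 counts in NTC and 105 and 62 in sgJUN#1, that is 2.20, 8.14 and 7.99 CPM against 21.7 and 22.2 CPM. The sgJUN#1 libraries were close to each other and above all NTC libraries. Its log2 change was 1.85 ± 0.433 (SE), with 0.210 as adjusted p-value in edgeR. It passed with DESeq2 (DESeq2 adjusted p-value 0.0158) and without the expression filter (edgeR adjusted p-value 0.0149), and ran from 1.44 to 2.18 when single libraries were left out.

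S100A9 (Entrez 6280, chromosome 1, 153330330 to 153333499) held 2, 9 and 10 counts in NTC and 49 and 11 in sgJUN#1. In CPM these were 0.550, 3.66 and 2.22 against 10.1 and 3.94, so replicate 2 was barely above NTC replicate 2. The log2 change was 1.83 ± 0.629 (SE), with 0.459 as adjusted p-value in edgeR, and it was 0.94 without sgJUN#1 replicate 1. S100A8 outnumbered S100A9 in every library, with a ratio of counts between 2.14 and 5.64. The subunits are also abundant in neutrophils and monocytes. Of the immune markers, CD3E had no count, LYZ at most 3 counts and PTPRC at most 10 counts in any library. CD68, a lysosomal gene that epithelial cells also transcribe, had 3.11 to 8.14 CPM in NTC and 11.4 and 16.1 CPM in sgJUN#1. The 4 immune markers summed to 5.99 to 8.95 CPM in NTC and to 11.8 and 17.9 CPM in sgJUN#1.

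**Figure D2:**
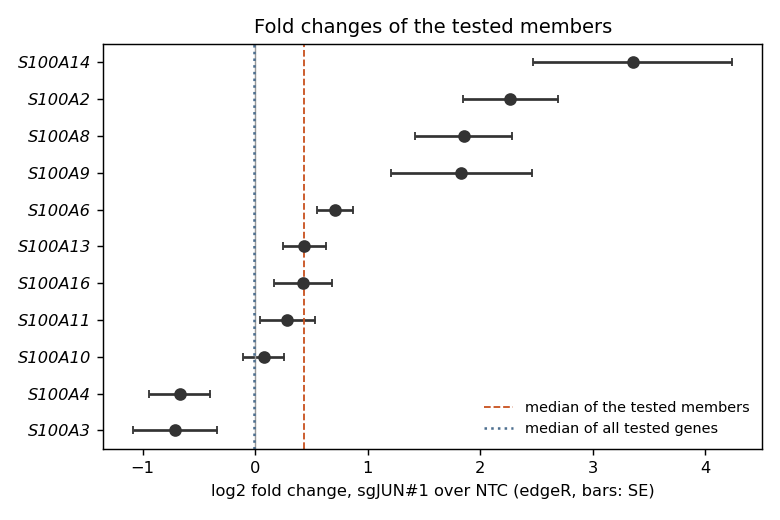
Log2 fold change (sgJUN#1 over NTC, edgeR) of the 11 tested members, with bars of 1 SE. The dashed line is their median, 0.44, the dotted line the median of all tested genes, -0.0082, and S100A3 and S100A4 are the members below 0.

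S100A13, which takes part in the release of signal proteins that lack a leader peptide, had CPM values of 164, 179 and 149 with NTC, against 234 and 210.4 with sgJUN#1. The groups did not overlap, and the log2 fold change was 0.44 (SE 0.189, edgeR unadjusted p-value 0.0443, adjusted p-value 0.579). Its gene body shares 3435 bases with S100A1, which lies on the opposite strand. S100A1, the muscle-type member, had 9, 1 and 1 counts in NTC and 7 and 4 in sgJUN#1 and was under the filter. Whether the counting used strand was not given in the sources used here, so reads in the shared stretch could belong to either gene.

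S100A16, S100A10 and S100A11 were the abundant members whose groups overlapped. S100A16, a widely expressed S100 protein, had 693, 1048 and 829 CPM in NTC and 1429 and 867 CPM in sgJUN#1. Its log2 change of 0.42 ± 0.256 (SE), with 0.709 as adjusted p-value in edgeR, became 0.019 without sgJUN#1 replicate 1. S100A10, the light chain of the annexin A2 tetramer, had 633, 527 and 574 CPM in NTC and 646 and 572 CPM in sgJUN#1. Its log2 change was 0.076 ± 0.184 (SE), with 0.949 as adjusted p-value in edgeR, and changed sign, to -0.013, without sgJUN#1 replicate 1. S100A11, a partner of annexin A1, had 222, 372 and 265 CPM in NTC and 377 and 321 CPM in sgJUN#1, which gave a log2 change of 0.29 ± 0.242 (SE), with 0.793 as adjusted p-value in edgeR.

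The annexins were read beside their partners. ANXA2 had 1426, 1293 and 1056 CPM in NTC and 2124 and 1986 CPM in sgJUN#1. The log2 change of ANXA2 was 0.71 ± 0.189 (SE), with 0.281 as adjusted p-value in edgeR, whereas that of S100A10 was 0.076. ANXA1, the partner of S100A11, had overlapping groups and a log2 change of 0.067 ± 0.197 (SE), with 0.960 as adjusted p-value in edgeR. Among the S100 relatives outside the complex, S100P had 7.98 to 28.4 CPM in NTC and 29.3 and 1.79 CPM in sgJUN#1, S100B had no count, and S100G and S100Z were under the filter. TLR4, a receptor for calprotectin, had 15, 1 and 33 counts in NTC and 0 and 1 in sgJUN#1 (edgeR adjusted p-value 0.341). AGER, the other receptor on the list, was under the filter.

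S100A4 and S100A3 were the members with lower levels in sgJUN#1. S100A4, known from motile and mesenchymal cells, had 69.3, 54.5 and 73.6 CPM in NTC and 52.2 and 30.1 CPM in sgJUN#1. Replicate 1 of sgJUN#1 was only slightly below NTC replicate 2. The log2 fold change of S100A4 was -0.67 (SE 0.272, edgeR unadjusted p-value 0.0350, adjusted p-value 0.552), with -0.33 without sgJUN#1 replicate 2 and -1.13 without replicate 1. S100A3, a gene of the hair cuticle, had 7.98, 6.11 and 10.2 CPM in NTC and 4.75 and 5.37 CPM in sgJUN#1, which gave a log2 change of -0.71 ± 0.370 (SE), with 0.664 as adjusted p-value in edgeR. S100A3 lies within S100A4 on the same strand, with 1930 bases in common. Their counts may therefore share reads, and their values are uncertain as separate measurements.

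**Figure D3:**
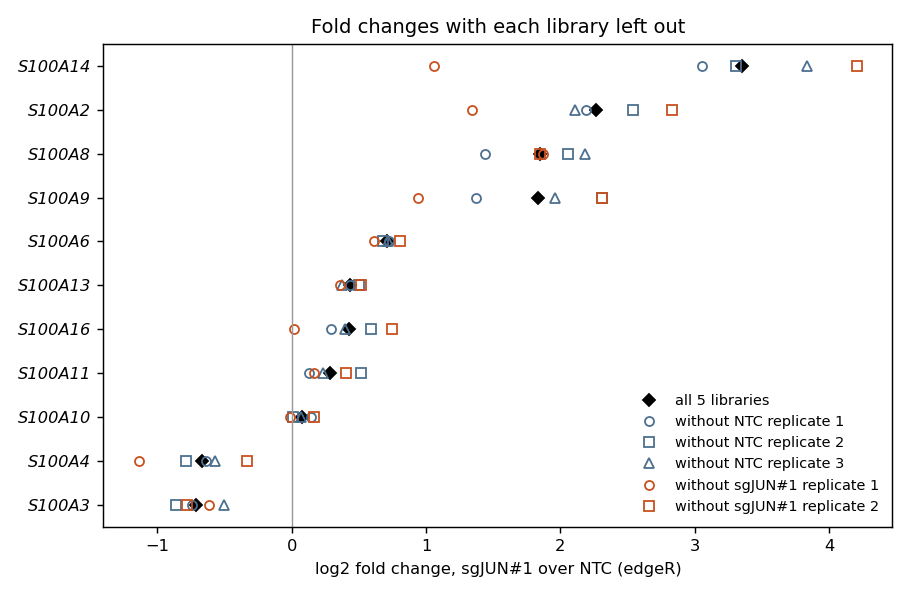
Log2 fold change (sgJUN#1 over NTC, edgeR) of the 11 tested members with all 5 libraries (filled diamonds) and with each library left out (open symbols). S100A14 ran from 1.06 to 4.204 and S100A2 from 1.34 to 2.83, both lowest without sgJUN#1 replicate 1, whereas S100A6 stayed between 0.61 and 0.81.

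The envelope and keratin-binding part of the complex had few or no counts in both groups. Of the 52 members 31 had no count in any library, and 7 had counts but did not reach the minimum, with at most 5 counts in a library. A count of 0 allows up to 3 counts, which corresponds to 0.601 to 1.22 CPM per library, so differences below that level were not detectable at this depth. SPRR2A was the SPRR gene with counts, 0, 2 and 7 in NTC and 3 and 4 in sgJUN#1, and the remaining SPRR genes, loricrin, RPTN and CRNN had none. The LCE family had 2 genes with a count, LCE3D and LCE1B, at 1 count each in a single sgJUN#1 library. IVL had 2 counts in sgJUN#1 replicate 1 and 0 in the other libraries, as had S100A5. The psoriasin genes S100A7 and S100A7A and the calgranulin gene S100A12, known from inflamed skin and neutrophils, had no count.

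Filaggrin was the single gene that reached the minimum. FLG (Entrez 2312, chromosome 1, 152274641 to 152297715) had 2, 1 and 5 counts in NTC and 6 and 7 in sgJUN#1, that is 0.550, 0.407 and 1.11 CPM against 1.24 and 2.50 CPM. Both sgJUN#1 libraries were higher, but FLG was under the expression filter and was not tested. Hornerin lay just outside the minimum, with 1, 0 and 1 counts in NTC and 5 and 2 in sgJUN#1. TCHH had between 1 and 3 counts in every library. The SPRR and LCE families hold near-identical copies, and reads with several alignments could be placed in the wrong copy.

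The windows of IVL (chr1:152908296-152908545, plus strand) and SPRR1B (chr1:153030953-153031202, plus strand) are shown because they held the AP-1 motif, again in capitals, although the genes gave 2 counts and no counts here.
IVL: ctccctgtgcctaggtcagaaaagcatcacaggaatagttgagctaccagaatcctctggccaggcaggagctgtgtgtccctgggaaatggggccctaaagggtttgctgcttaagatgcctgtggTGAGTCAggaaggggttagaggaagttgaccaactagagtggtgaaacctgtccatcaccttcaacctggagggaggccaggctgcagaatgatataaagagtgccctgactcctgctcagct
SPRR1B: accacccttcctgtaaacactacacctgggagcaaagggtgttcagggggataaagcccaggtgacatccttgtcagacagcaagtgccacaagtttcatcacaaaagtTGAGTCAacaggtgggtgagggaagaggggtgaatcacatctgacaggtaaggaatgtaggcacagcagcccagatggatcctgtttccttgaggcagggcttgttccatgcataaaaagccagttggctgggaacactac
TGAGTCA starts at -123 from the annotated start of IVL and at -141 from that of SPRR1B.

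Position within the complex was compared with the fold changes. The tested members lie at its ends: S100A10 and S100A11 at one, and the other 9 in the stretch from S100A9 to S100A13. Inside the span the table held 10 genes that are no members, 0 of which were tested, with at most 1 count in any library. The 10 nearest tested genes before the complex had a median log2 fold change of -0.073, from -0.76 to 0.14, and the 10 nearest after it a median of -0.19, from -0.64 to 0.60. In either set 0 of 10 had an unadjusted edgeR p-value under 0.05. In the stretch of 97.4 kb from S100A6 to S100A1, 5 of 7 tested genes had an unadjusted edgeR p-value under 0.05, beside 8.38% of all tested genes. S100A4 was lower and S100A6, S100A2, S100A14 and S100A13 were higher. No rule fixed the bounds of this stretch, and its genes are members already described, so the count is a description. Without sgJUN#1 replicate 1, S100A2 fell to 1.34 and S100A14 to 1.06, and S100A4 shares bases with S100A3.

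**Figure D4:**
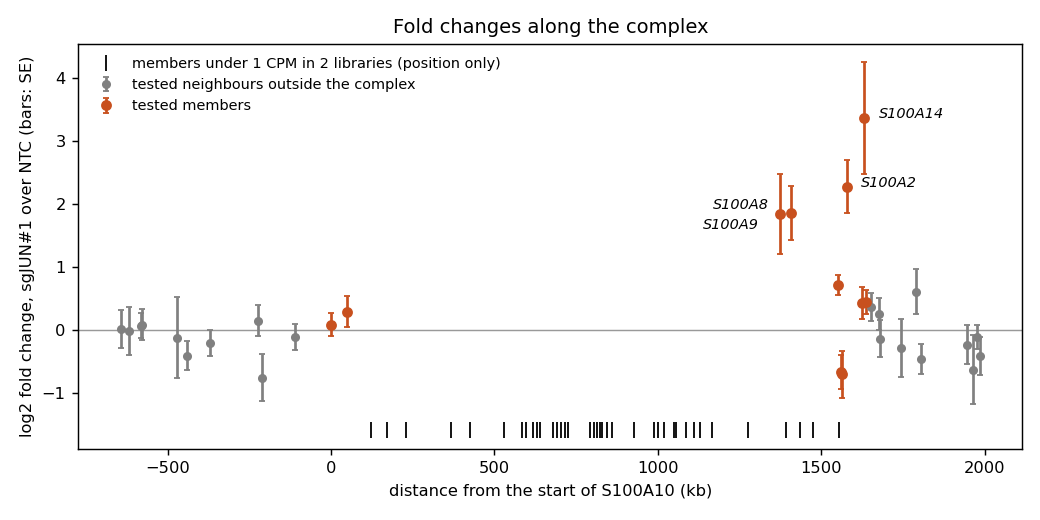
Log2 fold change (sgJUN#1 over NTC, bars of 1 SE) against distance in kb from the start of S100A10, for the 11 tested members and for the 10 nearest tested genes on each side. Ticks mark the 38 members below the minimum, and FLG, SPRR2A and S100A1 are not drawn. S100A14, S100A2, S100A8 and S100A9 lie at 1.83 or more, and the neighbours on both sides between -0.76 and 0.60.

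Further genes were read from a list of 59, of which 24 were tested and 0 passed the edgeR threshold over all genes. The list held 27 envelope and barrier proteins and 16 regulators of squamous differentiation. It also held 8 S100 relatives and partners and 8 other genes of the complex. At an unadjusted edgeR p-value under 0.05 there were 8 of the 24, beside the 8.38% of all tested genes given above, and DESeq2 and limma-voom called 0. Among the 8, SCEL passed the expression filter only through its sgJUN#1 libraries and TLR4 only through its NTC libraries. ANXA2 and TLR4, among the 8, belong to the S100 relatives and partners. The log2 fold change was positive in 12 of the 24, with a median of -0.022. By sub-list the median was 0.64 over 10 envelope and barrier proteins, -0.17 over 10 regulators and -0.026 over 4 S100 relatives and partners. Among envelope and barrier proteins 10 of 27 were tested, and in 5 of these both sgJUN#1 libraries were above all NTC libraries, in 1 below, beside 12.2% and 12.8% of all tested genes. SCEL is among the 5 and in the median of 0.64. As it passed the filter only through sgJUN#1, its place in both is no separate evidence. CSTA, which encodes the envelope protein cystatin A, had 46.8, 53.3 and 35.0 CPM in NTC and 72.7 and 101 CPM in sgJUN#1, which gave a log2 change of 0.95 ± 0.245 (SE), with 0.264 as adjusted p-value in edgeR. SCEL, the gene of the envelope protein sciellin, held 5, 1 and 8 counts in NTC and 35 and 13 in sgJUN#1, which gave a log2 change of 2.21 ± 0.533 (SE), with 0.217 as adjusted p-value in edgeR. ABCA12, the lipid transporter of lamellar granules, had a log2 change of 0.73 ± 0.30 (SE), with 0.554 as adjusted p-value in edgeR, and it was 0.25 without sgJUN#1 replicate 2 and 1.13 without replicate 1. PPL, which encodes periplakin, and CNFN, which encodes cornifelin, had log2 changes of -1.62 ± 0.833 and -0.64 ± 0.398 (SE), with 0.680 and 0.719 as adjusted p-values in edgeR.

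KRT10, the most abundant envelope-list gene, had 91.0, 80.6 and 49.7 CPM in NTC and 107 and 109 CPM in sgJUN#1 (edgeR adjusted p-value 0.621). Its keratin partner KRT1 had no count, as had KRTDAP, CALML5 and KLK7. The cross-linking enzyme gene TGM1 had 1 to 15 counts and was under the filter. Of 16 regulators 10 were tested, 4 with a positive log2 fold change, and their median was -0.17. PRDM1, a repressor active in terminal differentiation, had 4.40, 11.0 and 10.4 CPM in NTC and 14.2 and 28.3 CPM in sgJUN#1, which gave a log2 change of 1.29 ± 0.427 (SE), with 0.433 as adjusted p-value in edgeR, and 0.75 without sgJUN#1 replicate 2. CEBPB, the most abundant regulator, had 286, 287 and 398 CPM in NTC and 263 and 284 CPM in sgJUN#1. The remaining genes of the complex outside the rule, 8 in number, had at most 1 count in a library, and 5 of them had none.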

How the data were processed

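The members and gene lists were chosen with earlier results of these data known. RNA of 5 MCF10A SAM libraries was sequenced by the authors with the QuantSeq 3′ forward kit. Per the labels' processing notes Cutadapt 4.2, Bowtie2 2.3.5.1 and hg19 were used. The methods of the study name countOverlaps for counting. The authors deposited unnormalised counts, whole numbers for each gene. Annotation, strand, multiple alignments and molecular identifiers were not given in the sources used here, so depth limits cover counting error only.

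Groups and replicate numbers came from sample titles. Entrez identifiers were given symbols and biotypes from RefSeq (23308 of 23459 matched), and GRCh37 positions from GENCODE. CPM for the rule used library totals, and all printed CPM used TMM-scaled library sizes. Counts were tested with edgeR 4.0.16 (filterByExpr, TMM, robust quasi-likelihood F test, group as the only term) in R 4.3.3, with Benjamini-Hochberg adjustment over 13616 genes. SE is the log2 fold change over the square root of F. The code was tested on simulated data. Alternatives were DESeq2 1.42.0 on the filtered genes, limma-voom (limma 3.58.1), RLE size factors, library size alone, filters, left-out libraries and a replicate block. All members reaching the CPM minimum are named. Of the lists, genes with an unadjusted p-value under 0.05 and the most abundant are named, apart from some that are not reported here, and others for context after their values were seen.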

Additional observations from a re-analysis of the deposited data

How the results depend on the processing

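The members' median log2 fold change kept its sign in all 12 alternatives. Of 130 values of single members under them, 129 kept their direction. The exception was S100A10, whose values ran from -0.013 (without sgJUN#1 replicate 1) to 0.17. Fits without an sgJUN#1 library leave 1 library in that group, so only their fold changes are given. The count of members called, 0, was 2 with DESeq2 (S100A2 and S100A8) and 1 without the filter (S100A8). It stayed 0 when each NTC library was left out in turn. The median of 0.44 ran from 0.36 to 0.75 when each of the 5 libraries was left out in turn. The list of 59 genes had 1 call without the filter (SCEL) and 0 with each NTC library left out. The 28 genes called over the table became 143 with DESeq2, 148 without the filter and 18 under a minimum of 10 counts in all libraries. They became 10, 56 and 57 without NTC replicates 1, 2 and 3. JUN kept its direction and passed with DESeq2 (3.24, adjusted p-value 4.1e-11), and across the left-out libraries it ran from 2.84 to 3.68. With each NTC library left out in turn, the edgeR adjusted p-value of JUN ran from 0.00121 to 0.279. Causes were not tested. Both groups hold replicates 1 and 2. The labels state no pairing, but same-numbered replicates of the 2 groups carry consecutive library numbers, so they may have been prepared together. The main fit does not use this. The differences between these replicates in the 2 groups correlated at 0.0146 over genes. With the replicate block 103 genes and 0 members were called, the members' median was 0.39, and JUN had 2.82 (edgeR adjusted p-value 1.2e-04). Replicate 3 exists in NTC only, so in this fit NTC replicate 3 takes no part in the group difference. Without that library and without the block the median was 0.40 and JUN had 2.84. The block values therefore do not show the effect of pairing alone. With 9843 genes under the filter, the SPRR, LCE and filaggrin-type genes could not be compared with these counts, and whether their zeros come from low expression or from the counting of reads was not tested.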
